A study of Mus musculus with 4 samples.

Results

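The 40 genes described here are the tumour suppressor gene Trp53 with its regulators and target genes, the BCL2 family, the caspases and the proteins that restrain caspases. They were listed by symbol, and each is represented by a probe set that the platform annotation assigns to that gene alone, the one with the highest mean where there are several. Such a probe set was found for 38 of the 40, among 22180 genes in all. Trp53 itself and the pore-forming gene Bax have none in the annotation used and were not analysed here.

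RNA came from EO771, a cell line of mouse mammary carcinoma, on single-colour expression arrays. In the A-FABP group (2 arrays) 100 ng/ml of recombinant mouse A-FABP was added, the adipose form of the fatty acid binding proteins and a lipid chaperone of adipocytes and macrophages. The control group (2 arrays) received PBS, and no further genotype or treatment is labelled for either group. All 4 arrays thus rest on a single cell line, and how long the protein was present is not stated in the sources used here. A free-text label of the control arrays also mentions A-FABP, against their titles and the series design. The titles speak of biological replicates, but nothing says that they were separate cultures, so p-values measure the spread between these arrays only.

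p53 is a transcription factor that is held low by MDM2 and MDM4 and that, after DNA damage and other stress, switches on genes of cell cycle arrest, repair and death. Death through mitochondria is set by the BCL2 family: pro-survival members bind and hold back the pore formers BAX and BAK, and BH3-only proteins release that hold, while the related BOK is held low mainly by degradation. Cytochrome c from the mitochondrion then assembles APAF1 and caspase-9 into the apoptosome, which activates executioner caspases, while inhibitor of apoptosis proteins such as XIAP block caspases and SMAC (Diablo) removes that block. Mdm2 and Cdkn1a are textbook targets whose transcripts rise when p53 is active.

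Promoter sequence is shown for 5 genes because they stand for the patterns below: Cdkn1a for a p53 target whose arrays hardly differed, Plk2 and Btg2 for the lowest p53 targets, and Casp12 and Apaf1 for the members that lay furthest above the controls. Each window runs from 250 bases before to 50 bases after an annotated transcript start in RefSeq (GRCm38.p6), 5′ to 3′ on the gene's strand, and windows were found for 35 of the 40 members. The Cdkn1a window, at chr17:29090729-29091028 on the plus strand, belongs to the more upstream of 2 annotated starts. Capitals there mark a p53 element, here a pair of exact p53 half-sites no more than 13 bases apart. Its first base lies 73 bases before the start. A half-site was searched as RRRCWWGYYY without mismatch (R is A or G, W is A or T, Y is C or T). The letters tgacatgttc directly after the capitals depart from that pattern in their first base alone and were not marked. The capitals therefore may not bound the element.
Cdkn1a: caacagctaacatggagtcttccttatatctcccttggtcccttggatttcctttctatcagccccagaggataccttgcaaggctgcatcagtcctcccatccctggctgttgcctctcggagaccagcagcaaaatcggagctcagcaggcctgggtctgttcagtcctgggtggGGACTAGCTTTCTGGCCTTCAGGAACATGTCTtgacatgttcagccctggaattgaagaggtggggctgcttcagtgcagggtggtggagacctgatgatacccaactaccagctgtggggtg
The Plk2 window lies at chr13:110394794-110395093 on the plus strand and the Btg2 window at chr1:134079106-134079405 on the minus strand. Capitals mark the cyclic AMP response element TGACGTCA, which begins 62 bases before the Plk2 start and 166 bases before the Btg2 start.
Plk2: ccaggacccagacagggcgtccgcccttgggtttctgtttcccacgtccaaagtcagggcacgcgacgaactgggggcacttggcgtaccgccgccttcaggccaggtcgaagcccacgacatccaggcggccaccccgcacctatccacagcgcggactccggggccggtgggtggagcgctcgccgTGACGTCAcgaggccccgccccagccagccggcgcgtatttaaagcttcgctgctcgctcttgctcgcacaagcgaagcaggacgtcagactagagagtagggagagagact
Btg2: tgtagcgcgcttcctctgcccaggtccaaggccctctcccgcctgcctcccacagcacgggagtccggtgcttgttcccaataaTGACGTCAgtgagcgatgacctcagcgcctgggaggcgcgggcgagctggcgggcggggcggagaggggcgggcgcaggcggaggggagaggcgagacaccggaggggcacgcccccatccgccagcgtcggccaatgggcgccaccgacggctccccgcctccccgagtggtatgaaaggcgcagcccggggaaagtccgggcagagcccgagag
The Casp12 window lies at chr9:5345226-5345525 on the plus strand, with CCAAT boxes of either strand in capitals. The Apaf1 window, at chr10:91082694-91082993 on the minus strand, held none of the motifs searched.
Casp12: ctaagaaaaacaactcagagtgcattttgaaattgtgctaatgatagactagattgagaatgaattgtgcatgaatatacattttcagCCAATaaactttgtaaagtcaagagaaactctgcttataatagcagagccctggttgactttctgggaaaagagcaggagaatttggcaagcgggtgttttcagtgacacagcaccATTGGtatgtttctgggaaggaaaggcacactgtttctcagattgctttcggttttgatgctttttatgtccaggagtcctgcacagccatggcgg
Apaf1: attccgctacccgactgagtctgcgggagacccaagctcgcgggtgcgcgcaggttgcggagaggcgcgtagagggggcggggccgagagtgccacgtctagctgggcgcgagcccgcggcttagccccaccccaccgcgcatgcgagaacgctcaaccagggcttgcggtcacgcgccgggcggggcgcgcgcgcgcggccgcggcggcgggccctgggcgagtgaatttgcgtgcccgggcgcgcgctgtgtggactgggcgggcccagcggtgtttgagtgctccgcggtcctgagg

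The motifs were chosen after the windows and the values had been seen, both strands were searched, and a match is a description of letters and not a site shown to be used. The p53 element, counted only where both half-sites matched exactly, was in 0.0731% of all 32851 windows and, among the members, in Cdkn1a alone. Its half-site, which every element contains, was in 8.36% of all windows and in 11 of the 50 member windows, from 10 genes (Aen, Bax, Birc2, Bmf, Ccng1, Cdkn1a, Ei24, Mdm2, Sesn1 and Trp53). TGACGTCA was in 1.79% of all windows and in those of Plk2, Btg2 and Birc2. CCAAT was in 37.4% of all windows and in 19 member windows, and TATAAA in 13.6% and in 2.

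Values are log2 expression as deposited, each difference is the A-FABP mean minus the PBS mean on that scale, and SE, 95% confidence intervals and p-values come from limma's moderated fit over all 41345 probe sets with Benjamini-Hochberg adjustment. No member passed an adjusted p under 0.05, nor did any probe set (0% called). The lowest limma adjusted p among the members was 0.296. For a single gene in 2 and 2 arrays, 0.33 is the smallest two-sided p that an exact permutation test allows. At an unadjusted p under 0.05 there were 3 members on the higher side (Casp12, Apaf1 and Sesn1), 7.89% of 38 against 4.81% of all genes. The 3 on the lower side (Btg2, Bik and Plk2) were 7.89% against 8.24% of all genes. Both shares are near the background. With single arrays left out, the difference ran from 0.39 to 0.54 for Casp12, 0.28 to 0.31 for Apaf1 and 0.21 to 0.27 for Sesn1. It ran from -0.51 to -0.27 for Btg2, -0.42 to -0.31 for Bik and -0.39 to -0.25 for Plk2. Fewer members passed the unadjusted threshold on either side in these fits. Those on the lower side were not always among the 3 named. Because none passed the adjusted threshold, the directions below are descriptions.

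**Figure D1:**
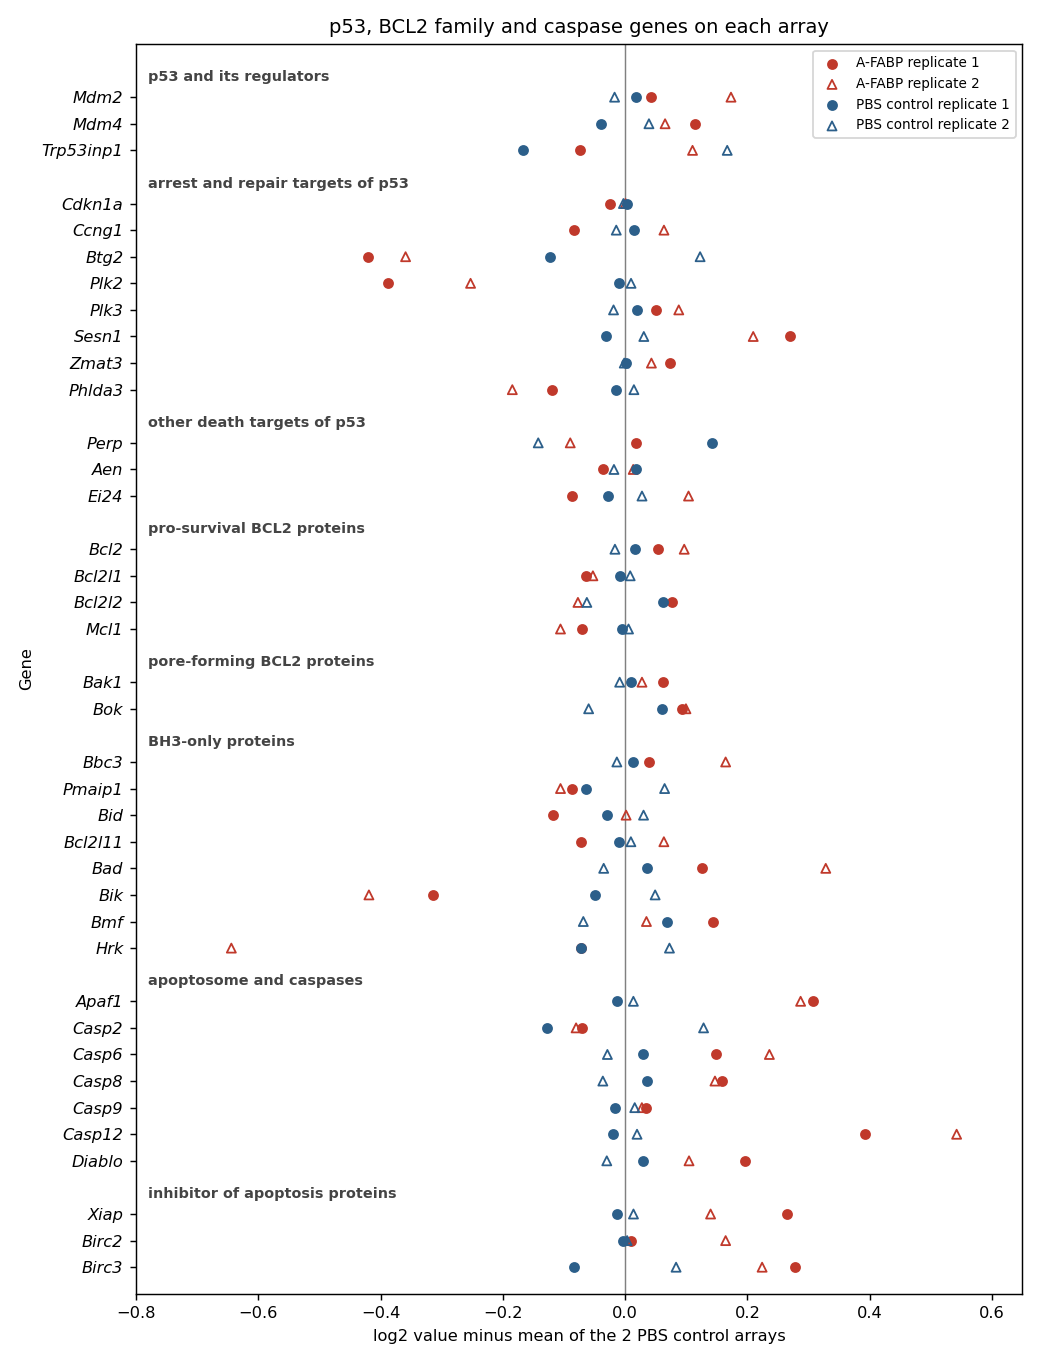
Log2 value of each of the 38 measured genes on each array, minus the mean of its 2 PBS control arrays, by role (red, A-FABP; blue, PBS control; filled circles, replicate 1; open triangles, replicate 2). Casp12 and Apaf1 stand to the right of their controls and Btg2, Plk2 and Bik to the left, while Cdkn1a points nearly coincide and, for Hrk, A-FABP replicate 1 lies under PBS control replicate 1.

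Of 3 measured p53 regulators, 2 had both A-FABP arrays above the controls and 1 overlapped, against 26.0% above over all genes. Mdm2, the ubiquitin ligase and feedback inhibitor of p53, had 11.50 and 11.63 with A-FABP, against 11.47 and 11.44 with PBS. Both A-FABP arrays were higher, by 0.11 ± 0.09 SE (95% CI -0.14 to 0.36), and by 0.04 without A-FABP replicate 2. Mdm4, its non-catalytic relative, had 10.14 and 10.10 with A-FABP, against 9.99 and 10.07 with PBS, a difference of 0.09 ± 0.08. Trp53inp1, a p53-induced nuclear protein gene, overlapped between groups and differed by 0.02 ± 0.16, a value that was -0.05 once the trend of differences on mean level was removed.

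Among the p53 targets of arrest and repair, the best known one hardly differed, and a pair was lower. Cdkn1a encodes the cyclin-dependent kinase inhibitor p21. It had 12.26 and 12.29 with A-FABP, against 12.29 and 12.29 with PBS. The groups differed by -0.01 ± 0.08 (95% CI -0.23 to 0.20; 0.05 after median centring). Ccng1, which encodes cyclin G1, also overlapped, at -0.01 ± 0.09 (95% CI -0.27 to 0.25; 0.05 after median centring).

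Btg2, an antiproliferative gene that is also an immediate early gene, had 7.37 and 7.43 with A-FABP, against 7.67 and 7.92 with PBS. The A-FABP arrays were below either control (1.31-fold lower; -0.39 ± 0.12 SE; unadjusted p = 0.0309, limma adjusted p = 0.304). Plk2, a polo-like kinase gene, had 10.70 and 10.83 with A-FABP, against 11.07 and 11.09 with PBS. It was 1.25-fold lower (-0.32 ± 0.09; unadjusted p = 0.0248, limma adjusted p = 0.301). Both printed promoters hold TGACGTCA, as does that of Birc2, which lay above the controls at 0.09. Also on this side was Phlda3, which encodes an inhibitor of AKT signalling, with 8.15 and 8.09 with A-FABP, against 8.26 and 8.29 with PBS (-0.15 ± 0.08).

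Sesn1, which encodes the stress protein sestrin 1, went the other way. It had 8.73 and 8.67 with A-FABP, against 8.43 and 8.49 with PBS, 1.18-fold higher (0.24 ± 0.08; unadjusted p = 0.0443, limma adjusted p = 0.322). The gap between groups was larger than the gap within either, but with the trend on mean level removed the difference was 0.17 and the unadjusted p 0.110. Plk3, another polo-like kinase gene, had 10.06 and 10.10 with A-FABP, against 10.03 and 9.99 with PBS (0.07 ± 0.08). Zmat3, an RNA-binding zinc finger gene, had 8.83 and 8.80 with A-FABP, against 8.76 and 8.76 with PBS, a difference of 0.06 ± 0.08 that was -0.01 once the level trend was removed. Of the 8 genes of this role, 3 had both A-FABP arrays above the controls, 3 had both below and 2 overlapped. Over all genes, 26.0% had both above and 27.5% both below.

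The remaining death targets of p53 did not separate. Perp, a desmosomal membrane protein gene (-0.04 ± 0.13), Aen, an apoptosis-enhancing nuclease gene (-0.01 ± 0.08), and Ei24, an endoplasmic reticulum protein gene (0.01 ± 0.10), all overlapped between groups, and each turned sign under at least 1 other scaling. Perp, a dim probe set, averaged 5.84 ± 0.08 on the A-FABP arrays and 5.88 ± 0.20 on the PBS arrays (SD, n = 2 each).

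**Figure D2:**
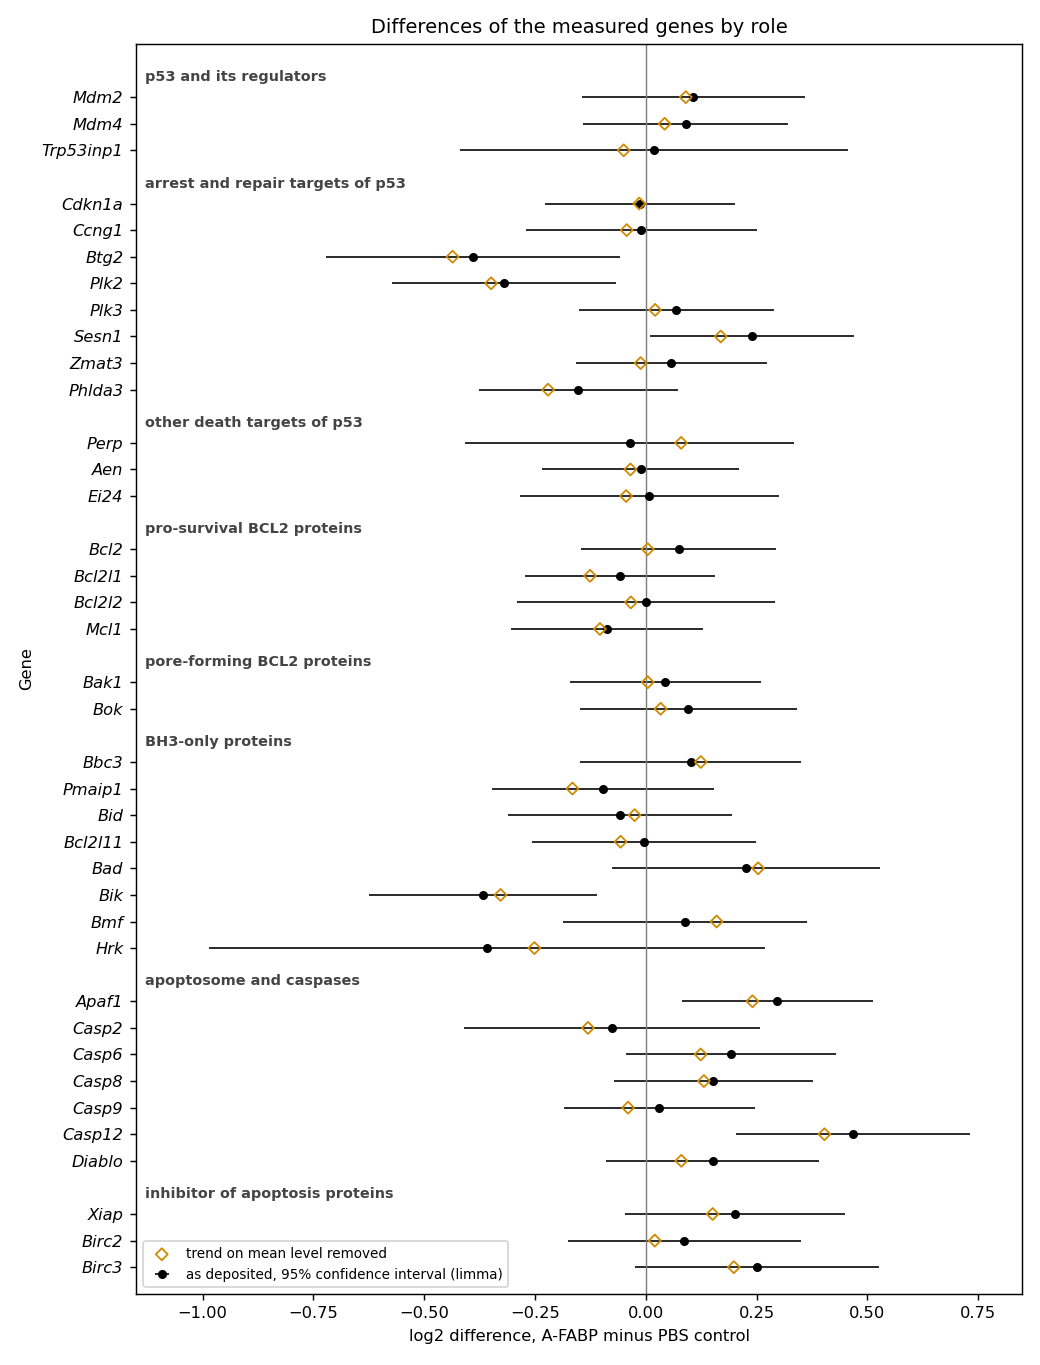
Log2 difference, A-FABP minus PBS control, of the 38 measured genes by role (black points with 95% confidence intervals from limma; open diamonds, the same difference after the trend on mean level was removed). Intervals of Casp12, Apaf1, Sesn1, Btg2, Plk2 and Bik do not reach 0, before adjustment for the number of probe sets.

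Pro-survival BCL2 genes differed little. Bcl2, the founding member, had 8.49 and 8.53 with A-FABP, against 8.45 and 8.42 with PBS. The groups differed by 0.07 ± 0.08 (95% CI -0.15 to 0.29; -0.00 after repeated quantile normalization). Its other probe set was dim, its A-FABP values of 4.98 and 4.94 stood against 5.11 and 5.25 with PBS, and it ran the opposite way (-0.22 ± 0.09). The probe sets of Bcl2 therefore disagree in sign.

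Bcl2l1, which encodes BCL-XL, had 8.95 and 8.96 with A-FABP, against 9.004 and 9.02 with PBS. It lay below both controls by a small amount (-0.06 ± 0.08, 95% CI -0.27 to 0.16; 0.01 after median centring). Mcl1, which encodes a short-lived survival protein, had 11.57 and 11.54 with A-FABP, against 11.64 and 11.65 with PBS (-0.09 ± 0.08, 95% CI -0.30 to 0.13). Its other probe set pointed up, with 6.84 and 6.995 with A-FABP, against 6.81 and 6.81 with PBS (0.11 ± 0.09). Bcl2l2, which encodes BCL-W, differed by 0.00 ± 0.10, with overlapping groups and a negative sign under 3 other scalings.

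Both measured pore formers had A-FABP arrays slightly above the controls, against 26.0% of all genes. Bak1 had 10.43 and 10.40 with A-FABP, against 10.38 and 10.36 with PBS (0.04 ± 0.08, and -0.00 after cyclic loess). Bok had 9.36 and 9.37 with A-FABP, against 9.33 and 9.21 with PBS (0.10 ± 0.09). Bak1 lay within its SE and Bok just outside it, and Bok was 0.04 without PBS control replicate 2.

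BH3-only genes did not share a direction. Bik, whose product sits in the endoplasmic reticulum membrane, had 6.55 and 6.45 with A-FABP, against 6.82 and 6.91 with PBS. It was 1.29-fold lower (-0.37 ± 0.09; unadjusted p = 0.0169, limma adjusted p = 0.296), and the gap between groups was larger than the gap within either. Hrk, known from neurons and dim here, had 5.03 and 4.46 with A-FABP, against 5.03 and 5.18 with PBS (-0.36 ± 0.22). The Hrk difference rests on A-FABP replicate 2, without which it was -0.07.

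The BH3-only gene furthest above the controls was Bad, whose product links survival kinases to BCL-XL. Bad had 6.79 and 6.996 with A-FABP, against 6.70 and 6.63 with PBS (0.23 ± 0.11, 95% CI -0.08 to 0.53). It was 0.13 without A-FABP replicate 2. Bbc3 and Pmaip1, which encode the p53-induced proteins PUMA and NOXA, pointed in opposite directions. Bbc3 had 6.80 and 6.93 with A-FABP, against 6.78 and 6.75 with PBS (0.10 ± 0.09). Pmaip1 had 8.76 and 8.74 with A-FABP, against 8.78 and 8.91 with PBS (-0.10 ± 0.09). Both gaps were about the size of their SE, and Bbc3 was 0.04 without A-FABP replicate 2 and Pmaip1 -0.03 without PBS control replicate 2. Bcl2l11, which encodes BIM, had 9.76 and 9.89 with A-FABP, against 9.82 and 9.84 with PBS, and its groups overlapped (-0.00 ± 0.09, 95% CI -0.26 to 0.25; 0.06 after median centring). Bid, the substrate of caspase-8 that links death receptors to mitochondria (-0.06 ± 0.09, and 0.01 after median centring), and Bmf (0.09 ± 0.10) overlapped as well. Of the 8 genes of this role 2 were above, 2 below and 4 overlapped, that is 25% each way, close to the 26.0% and 27.5% of all genes. Their median was -0.03.

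The apoptosome and caspase genes lay mostly above the controls. In 6 of 7 both A-FABP arrays were above both controls, in 0 below, against 26.0% and 27.5% of all genes. Their median difference was 0.15, against -0.01 over all genes, and 0.12 with the trend on mean level removed.

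Casp12, an inflammatory-type caspase of the endoplasmic reticulum, differed most among all members. It had 8.18 and 8.33 with A-FABP, against 7.76 and 7.80 with PBS, 1.38-fold higher (0.47 ± 0.09, 95% CI 0.20 to 0.73; unadjusted p = 0.00816, limma adjusted p = 0.296). Its unadjusted p stayed under 0.05 in all 12 alternative settings, from 0.00247 to 0.0475. Apaf1, the scaffold of the apoptosome and a p53 target, had 9.81 and 9.80 with A-FABP, against 9.49 and 9.52 with PBS. It was 1.23-fold higher (0.30 ± 0.08; unadjusted p = 0.0190, limma adjusted p = 0.296), and the replicates of each group nearly coincided.

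The initiator and executioner caspases that could be measured differed less. Casp8, the initiator at death receptors, had 11.38 and 11.36 with A-FABP, against 11.25 and 11.18 with PBS (0.15 ± 0.08, 95% CI -0.07 to 0.38). Casp6, an executioner, had 9.01 and 9.10 with A-FABP, against 8.89 and 8.83 with PBS (0.19 ± 0.08). Casp9, the apoptosome's own initiator, had 8.55 and 8.54 with A-FABP, against 8.50 and 8.53 with PBS, a difference of 0.03 ± 0.08 that was -0.04 once the level trend was removed. The Casp9 difference lies within its SE. Diablo, the XIAP antagonist, had 8.61 and 8.52 with A-FABP, against 8.45 and 8.39 with PBS (0.15 ± 0.09). Casp2, activated in the PIDDosome, was the exception with overlapping groups (-0.08 ± 0.12). PBS control replicate 2 decides its sign, which was 0.05 without that array.

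In all 3 inhibitor of apoptosis genes both A-FABP arrays lay above the controls as well, against 26.0% of all genes. Birc3, an NF-kB target that encodes cIAP2, had 7.88 and 7.83 with A-FABP, against 7.52 and 7.69 with PBS (0.25 ± 0.10, 95% CI -0.02 to 0.53). Xiap, the direct caspase inhibitor, had 7.86 and 7.74 with A-FABP, against 7.59 and 7.61 with PBS (0.20 ± 0.09). Birc2, which encodes cIAP1, had 8.09 and 8.25 with A-FABP, against 8.08 and 8.09 with PBS (0.09 ± 0.09), and without A-FABP replicate 2 it was 0.01. Their unadjusted p-values were 0.0647 for Birc3, 0.0864 for Xiap and 0.408 for Birc2 (limma). With the trend on mean level removed, the differences were 0.20 for Birc3, 0.15 for Xiap and 0.02 for Birc2.

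**Figure D3:**
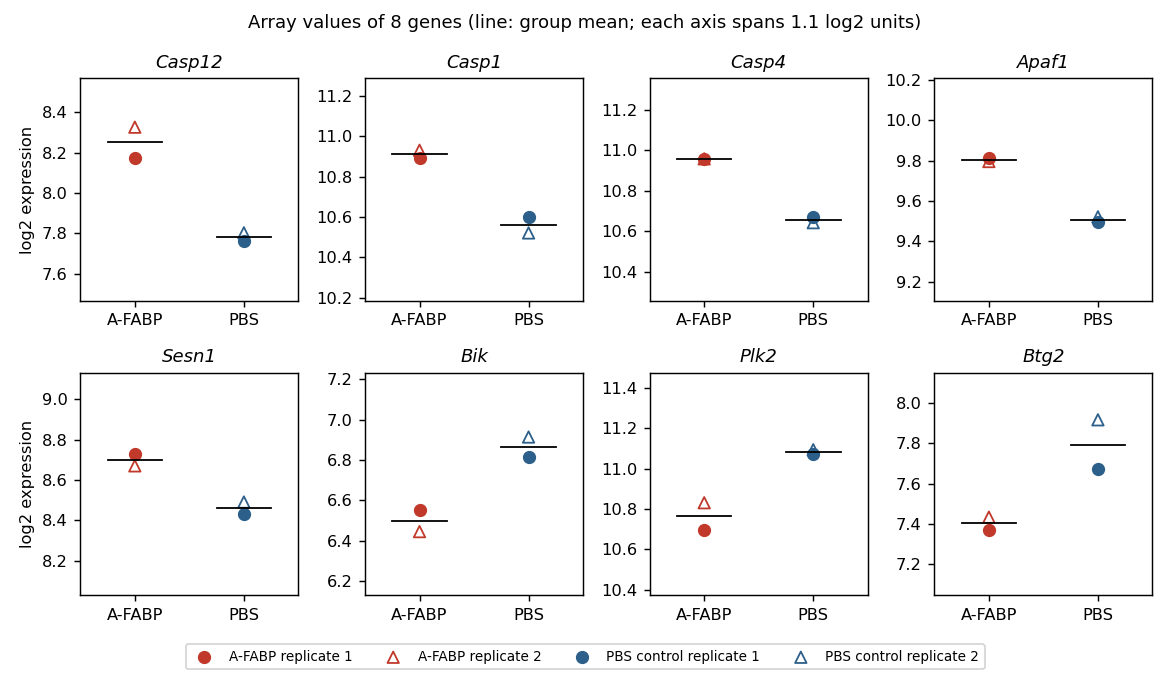
Log2 expression on each array of the 6 members at an unadjusted p under 0.05 and of Casp1 and Casp4, with A-FABP left of PBS (lines, group means). All 8 genes had an unadjusted p under 0.05 (limma), so groups that do not overlap follow from the choice of genes. Each axis spans the same range.

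The 3 classes, p53 targets, pro-death and pro-survival genes, were set side by side without a test, since members were chosen with results known. Bbc3, Pmaip1 and Apaf1 count among both p53 targets and pro-death genes. Perp, Aen and Ei24, the remaining death targets of p53 above, were counted as p53 targets only. Their differences (-0.04, -0.01 and 0.01) lie below the pro-death median, so counting them there would lower it. The median difference was -0.00 for the 16 measured p53 targets, 0.07 for 7 pro-survival genes and 0.09 for 17 pro-death genes, against -0.01 for all 22180 genes. Both A-FABP arrays lay above the controls in 6 p53 targets, 4 pro-survival genes and 10 pro-death genes. These are 37.5%, 57.1% and 58.8% of the measured genes of each class, against 26.0% of all genes. They lay below in 4, 2 and 2, which are 25%, 28.6% and 11.8%, against 27.5% of all genes.

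Differences also moved with level. Members had a median level of 8.55, against 6.33 for all genes, and all genes with a mean level of 8 to 9 had a median difference of 0.09, those of 7 to 8 also 0.09 and those of 6 to 7 of -0.10. With that trend removed, the medians were -0.02 for p53 targets, 0.00 for pro-survival and 0.03 for pro-death genes. The pro-survival genes without their 3 inhibitor of apoptosis genes, that is the BCL2 proteins alone, had a median of -0.03 as deposited. Caspases and inhibitors of apoptosis kept medians of 0.12 and 0.15 with the trend removed.

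**Figure D4:**
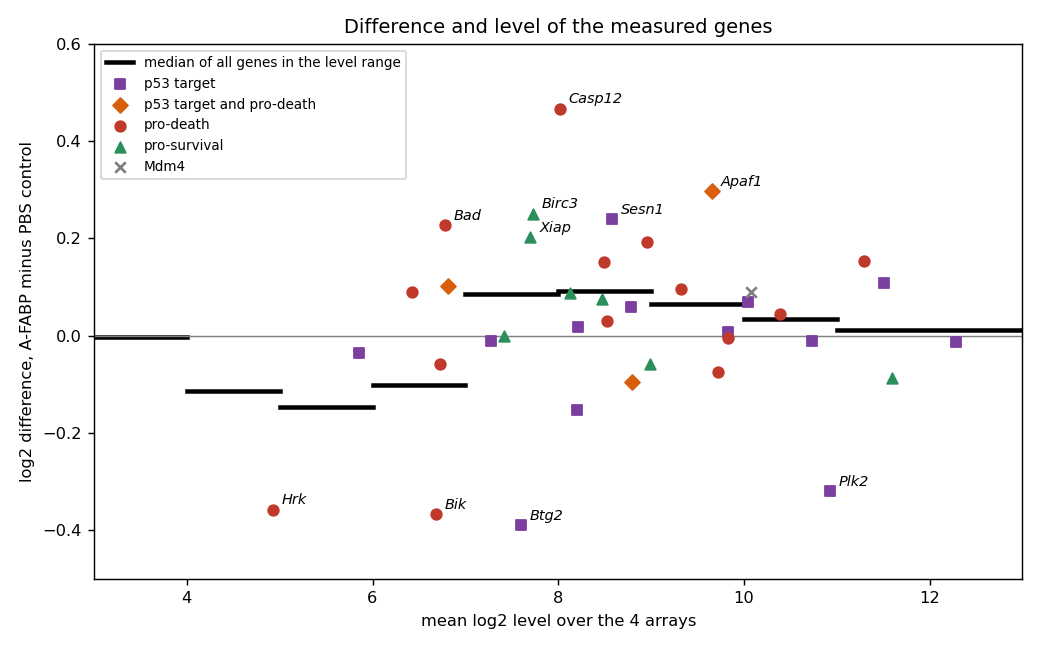
Log2 difference against mean log2 level for the 38 measured genes, marked by class, with the median difference of all genes in each level range (black bars). Genes between 7 and 9 had medians near 0.09 over all genes, and Casp12, Apaf1, Sesn1, Birc3 and Xiap lie above the bars of their ranges while Btg2, Plk2 and Bik lie below theirs.

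Over the 38 members the median size of the difference between groups was 0.0894, against 0.0760 between the A-FABP arrays and 0.0472 between the controls. For all genes these values were 0.129, 0.109 and 0.0976. In all, 19 members had both A-FABP arrays above the controls, 50% against 26.0% of all genes, and 7 had both below, 18.4% against 27.5%. With the trend on mean level removed the counts were 12 and 8, and after cyclic loess or repeated quantile normalization 11 and 10 lay above. The shares of all genes given here are those of the deposited values and are not matched to the higher level of the members. Such shares were not counted under the other settings, so whether these lower counts differ from a background was not tested.

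**Figure D5:**
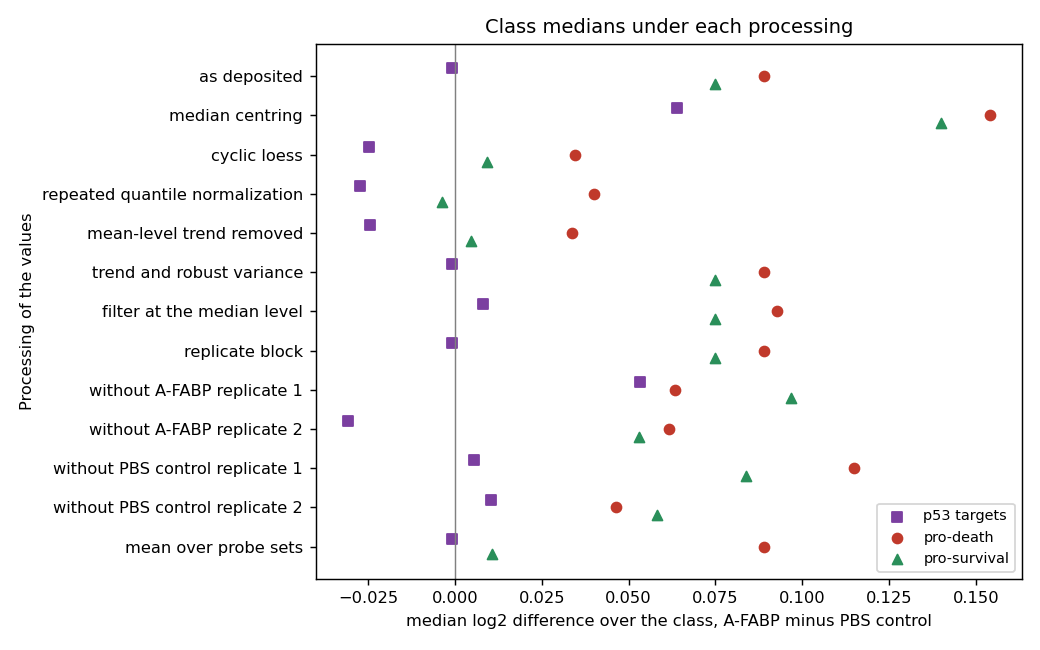
Median log2 difference of p53 targets (16 genes), pro-death genes (17) and pro-survival genes (7) as deposited and under 12 other settings. The p53 targets move between -0.03 and 0.06, and the medians of the other classes are lower after cyclic loess, repeated quantile normalization or removal of the trend on mean level and higher after median centring.

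Genes of the same pathways that are no members were taken from 2 further lists. Of 34 other p53 targets 29 were measured, with 1 higher and 1 lower at an unadjusted p under 0.05, that is 3.45% each way, against 4.81% and 8.24% of all genes. Their median was 0.03, against -0.01 for all genes, and -0.01 with the trend on mean level removed. Ppm1d, which encodes the phosphatase WIP1 that shuts off p53 signalling, lay at 0.29 ± 0.08, and Sfn, which encodes 14-3-3 sigma, at -0.31 ± 0.10. Next in order were Tigar (0.20), Ccng2 (-0.22), Polk (0.19) and Rprm (-0.21). Ppm1d had 10.43 and 10.52 with A-FABP, against 10.20 and 10.16 with PBS, and Sfn had 7.97 and 7.99 with A-FABP, against 8.20 and 8.37 with PBS.

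Of 29 other apoptosis genes 24 were measured, with 3 higher and 0 lower at an unadjusted p under 0.05, that is 12.5% and 0%, against 4.81% and 8.24% of all genes. Their median was 0.02, against -0.01 for all genes, and 0.04 with the trend removed. The 3 higher genes were Tradd, an adaptor of TNF receptor 1 (0.40 ± 0.09), and the inflammatory caspases Casp1 (0.35 ± 0.08) and Casp4 (0.30 ± 0.08). Casp1 had 10.89 and 10.93 with A-FABP, against 10.60 and 10.52 with PBS. Casp4 had 10.96 and 10.96 with A-FABP, against 10.67 and 10.64 with PBS. Casp1, Casp4 and Casp12 are neighbours on chromosome 9 in RefSeq, and signal shared between these related genes was not tested. Endog (0.20), Aifm1 (0.16) and Cflar (0.11) followed, all with A-FABP arrays above the controls, while Casp14 (-0.06) and the inhibitor of apoptosis gene Birc6 (-0.02), named after their values were seen, overlapped. No gene of either list passed an adjusted p under 0.05 (limma; lowest adjusted p 0.296).

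Across the 4 arrays, medians over all probe sets were 5.98 and 5.95 in the A-FABP group and 6.03 and 6.03 in the PBS group, and arrays of one group correlated at r = 0.991 in both groups, arrays of different groups at 0.985 to 0.989. Of 38 members, 36 had a mean above the median of all probe sets, the exceptions being Perp and Hrk. Epithelial markers were mostly near or below the array medians. Krt8 stood above them, with 8.76 and 8.85 with A-FABP, against 8.83 and 8.74 with PBS, but the other 6 of 7 lay between 4.45 and 6.39 on all arrays. Of the 4 fibroblast markers, Pdgfra lay at 11.16 to 11.22 and Col3a1 at 9.58 to 9.72. Dcn, at 6.09 to 6.73, and Thy1, at 5.55 to 6.28, lay much lower. Levels of different probe sets are not comparable, so the labelled cell type could not be checked beyond these values. Of 6 leukocyte markers 5 were measured, and all had a lower mean with A-FABP (median difference -0.34, and -0.22 with the trend on mean level removed). Of the 5, 4 had both A-FABP arrays below the controls, against 27.5% of all genes, and all genes at a level of 4 to 5 and 5 to 6 had medians of -0.11 and -0.15. Relative to the control mean, the leukocyte list's median lay at -0.21 and -0.36 on the A-FABP arrays, against -0.01 and 0.01 on the PBS arrays. Ptprc, the pan-leukocyte marker, read 3.997 and 3.996 with A-FABP, against 4.58 and 4.32 with PBS, while Cd68 lay at 12.70 to 12.84. The part of these markers in the results above was not tested.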

How the data were processed

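RNA of EO771 cells treated with A-FABP or PBS (2 arrays each) was measured on expression arrays. The deposited values are log2 expression per probe set, and the submitters' processing notes name RMA and Partek 6.6 without giving their roles, so background correction and normalization are taken as deposited. Of 41345 probe sets, 23521 name 1 gene, 1814 several and 16010 none in the platform annotation. A gene is the single-gene probe set with the highest mean (22180 genes). All probe sets were fitted with limma 3.58.1 (lmFit and eBayes, R 4.3.3) on group alone, with Benjamini-Hochberg adjustment over all of them, after the fit had been tested on simulated data. Arrays have no read depth, so their number (2 per group) limits the precision. The members and gene lists were chosen with earlier results of these data known. All 40 members are named; 4 array values are given for 13 key genes, for members whose groups do not overlap and for differences of at least 0.3, and up to 6 genes of each other pathway list are named by lowest p. Alternatives were median centring, cyclic loess, repeated quantile normalization, removal of the trend on mean level (loess span 0.3), a trended robust variance, a filter at the median level, a replicate block, leaving out each array and averaging probe sets.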

Additional observations from a re-analysis of the deposited data

How the results depend on the processing

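No member passed an adjusted p under 0.05 in any of the 12 alternatives, and the lowest limma adjusted p among members ran from 0.157 with the filter at the median level to 0.579 without PBS control replicate 2. The count of members higher at an unadjusted p under 0.05 (3) was 5 after median centring, 6 with the trended robust variance, 6 with the filter and 1 without any single array, and the count lower (3) was 1 after median centring and 0 to 2 without single arrays. Over all genes the split of higher and lower was 1066 and 1828 as deposited, 1812 and 1048 after median centring, which shifted the median of all genes by 0.07, and 979 and 1062 after cyclic loess. With the trended robust variance it was 1889 and 1425, and with the filter 1443 and 865 of 12545 genes. It was 813 and 1445 after repeated quantile normalization and 981 and 1008 with the trend removed. Members with both A-FABP arrays above the controls (19) numbered 11 after cyclic loess, 10 after repeated quantile normalization and 12 with the trend removed. Without single arrays 21 to 22 members lay above, and those below (7) numbered 9 to 13. Groups separate more easily with 1 array against 2, so the counts without single arrays cannot be compared with those of all arrays. The p53 target median was 0.064 after median centring and -0.031 to 0.053 without single arrays. The pro-survival median was 0.140 after median centring, 0.0093 after cyclic loess, -0.0036 after repeated quantile normalization, 0.0045 with the trend removed, 0.011 with probe sets averaged and 0.053 to 0.097 without single arrays. The pro-death median was 0.154, 0.035, 0.040 and 0.034 under those same first 4 settings and 0.046 to 0.115 without single arrays. The causes were not tested. The labels number the replicates alike in both groups, but same-numbered arrays did not deviate together (correlation -0.00889), and with the replicate block 2 members were higher and 3 lower at an unadjusted p under 0.05 and 0 passed the adjusted threshold. Of 454 values of single members under alternatives, 46 turned sign, in 16 members (Aen, Bak1, Bcl2, Bcl2l1, Bcl2l11, Bcl2l2, Bid, Casp2, Casp9, Ccng1, Cdkn1a, Ei24, Mcl1, Perp, Trp53inp1 and Zmat3), and 22 members kept their sign throughout. With 2 arrays per group and no detection calls, the precision is limited, and the median SE of a member was 0.0891.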

Other observations

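Casp1, Casp4 and Casp12 are neighbours on chromosome 9, and Birc2 and Birc3 lie further along the same stretch, beyond a cluster of matrix metalloproteinase genes, which encode enzymes that degrade extracellular matrix. The stretch was chosen after these values had been seen, so its counts are a description without a test. From 3 genes before Casp1 to 3 after Birc3 it holds 26 protein-coding genes, all with a probe set. Of these, 10 were higher with A-FABP at an unadjusted p under 0.05 and 0 lower, 15 had both A-FABP arrays above the controls and 2 below, and the median difference was 0.12 (0.19 with the trend on mean level removed). Over all genes 4.81% were higher and 8.24% lower at that threshold, and 26.0% had both A-FABP arrays above the controls and 27.5% below. Leaving out the caspase and Birc genes, 7 of 21 were higher and 0 lower at that threshold, with a median of 0.06 (0.18 with the trend removed). No gene of the stretch passed the adjusted threshold (limma).

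Among the metalloproteinase genes, Mmp1a had 8.22 and 8.35 with A-FABP, against 7.85 and 7.56 with PBS (0.58 ± 0.14 SE). Mmp3, which encodes stromelysin, had 9.75 and 9.84 with A-FABP, against 9.47 and 9.27 with PBS (0.42 ± 0.11). Mmp13, a collagenase gene, lay at 0.39 ± 0.13 and the dim Mmp1b at 0.90 ± 0.19. Mmp10 (0.24) and Mmp12 (0.14) also had both A-FABP arrays above the controls, and Mmp8 (0.05) and Mmp7 (-0.15) overlapped. The dim Mmp27 (-0.19 ± 0.10) and Mmp20 (-0.07 ± 0.08) had both A-FABP arrays below the controls. With the trend on mean level removed, Mmp27 was -0.07 and Mmp20 0.05. Outside the gene families, Cfap300, a cilia gene, lay at 0.72 ± 0.18, Msantd4 at 0.26 ± 0.08 and Dync2h1, a dynein heavy chain gene, at 0.26 ± 0.08. Signal shared between related genes of the stretch was not tested.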
